A study of Homo sapiens with 18 samples.

Results

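The genes described here are 33 genes of cholesterol and fatty acid synthesis and of its control, taken by name from a gene list of 62754 entries. All 33 were found in the count matrix by their symbol, and all 33 passed the filter on low counts, among 15167 genes tested. They comprise a sterol branch of 18 enzymes, with 7 mevalonate steps and 11 steps from squalene to cholesterol, a fatty acid branch of 8 enzymes, 6 regulators and sterol transport genes, and LPIN1, a phosphatidate phosphatase of glycerolipid synthesis. RNA was sequenced from EA.hy926, a human umbilical vein endothelial line made by fusion with the A549 lung epithelial line. Mock cells received transfection reagent without siRNA, siNT cells received a non-targeting siRNA, and siELMO1 cells received a pool of siRNAs against ELMO1, an adaptor of RAC1 activation, with siRNA at 10 nM. Each of these was lysed 48 h after transfection, before poly(I:C) (0 h), or after a further 24 h with 1 µg/ml poly(I:C), a double-stranded RNA that activates Toll-like receptor 3, with 3 libraries in each of the 6 groups. All cells were moved to low serum before the 0 h time point. No untreated 24 h group was analysed here, so poly(I:C) and the further 24 h of culture cannot be told apart. All cells belong to 1 hybrid line, and the knockdown is transient.

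Cells build cholesterol from acetyl-CoA by the mevalonate pathway, which ends in squalene, and then by oxidation, cyclisation and demethylation of squalene. Fatty acids are built from the same precursor by carboxylation, chain synthesis, elongation and desaturation. Both branches are known targets of the SREBP transcription factors, which SCAP escorts from the endoplasmic reticulum to the Golgi for cleavage when membrane sterol is low and which INSIG proteins hold back when sterol is high. Sterol synthesis in endothelial cells and macrophages is also known to respond to interferon.

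Promoter windows of RefSeq (build GRCh38.p14), from 250 bases before to 50 after the annotated start, were matched for 29 of the 33 genes. CCAAT, the letters bound by NF-Y, a factor known to act beside SREBP, was searched on both strands and occurred in 12 of 15 sterol branch windows (80.0%), 3 of 7 fatty acid branch windows (42.86%) and 35.7% of the 27305 windows in the table. The sterol regulatory element letters TCACNCCAC occurred in 0 of 15 sterol branch windows, in 0 of 7 fatty acid branch windows and in 1 of 6 windows of the regulators, against 1.146% of all windows. The E-box CACGTG occurred in 2 of 15 and 0 of 7 windows of the branches, against 7.435% of all. Only these exact letters within these windows were searched, so variant sites and sites elsewhere were not counted. These motifs can overlap at their ends, since CAC ends TCACNCCAC and begins CACGTG. The windows of the 4 genes with the largest differences between siELMO1 and siNT are shown, with that of SREBF2, chosen after its match was seen as the 1 window with the sterol regulatory element letters. Capitals mark matches on either strand, with CCAAT read as ATTGG on the other strand.
HMGCS1 (chr5:43313363-43313662, minus strand): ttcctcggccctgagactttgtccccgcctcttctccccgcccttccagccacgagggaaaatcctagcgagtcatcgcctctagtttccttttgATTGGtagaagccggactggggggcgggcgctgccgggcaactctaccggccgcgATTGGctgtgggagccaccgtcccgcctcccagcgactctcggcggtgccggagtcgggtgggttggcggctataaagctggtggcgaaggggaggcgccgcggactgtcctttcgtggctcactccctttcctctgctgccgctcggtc
IDI1 (chr10:1056655-1056954, minus strand): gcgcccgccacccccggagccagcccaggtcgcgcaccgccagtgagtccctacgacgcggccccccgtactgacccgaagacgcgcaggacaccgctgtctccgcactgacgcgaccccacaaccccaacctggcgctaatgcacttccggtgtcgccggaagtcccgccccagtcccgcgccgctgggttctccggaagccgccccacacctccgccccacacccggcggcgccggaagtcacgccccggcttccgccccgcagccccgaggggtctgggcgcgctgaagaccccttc
INSIG1 (chr7:155297628-155297927, plus strand): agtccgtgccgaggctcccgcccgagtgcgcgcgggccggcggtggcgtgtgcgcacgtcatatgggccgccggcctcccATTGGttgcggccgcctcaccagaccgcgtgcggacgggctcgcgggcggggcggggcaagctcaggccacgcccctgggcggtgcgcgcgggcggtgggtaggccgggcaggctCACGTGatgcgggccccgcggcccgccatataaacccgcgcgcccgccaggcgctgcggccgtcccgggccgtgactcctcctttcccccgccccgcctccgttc
ELOVL6 (chr4:110198566-110198865, minus strand): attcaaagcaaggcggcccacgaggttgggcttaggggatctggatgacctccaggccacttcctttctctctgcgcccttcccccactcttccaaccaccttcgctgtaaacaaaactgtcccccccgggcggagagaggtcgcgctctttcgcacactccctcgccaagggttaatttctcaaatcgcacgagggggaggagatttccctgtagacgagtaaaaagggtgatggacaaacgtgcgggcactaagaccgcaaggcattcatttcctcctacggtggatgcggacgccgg
SREBF2 (chr22:41832855-41833154, plus strand): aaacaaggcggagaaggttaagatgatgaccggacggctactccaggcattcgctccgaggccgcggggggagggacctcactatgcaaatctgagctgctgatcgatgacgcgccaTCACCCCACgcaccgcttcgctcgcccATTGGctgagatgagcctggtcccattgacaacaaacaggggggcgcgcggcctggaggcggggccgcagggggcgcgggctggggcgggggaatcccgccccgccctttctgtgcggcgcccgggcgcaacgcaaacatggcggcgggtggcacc
In HMGCS1 the CCAAT letters began 155 and 100 bases before the start, and in INSIG1 they began 170 bases before it, with CACGTG at 55. The SREBF2 window held the sterol regulatory element letters 133 bases and CCAAT 106 bases before the start. The IDI1 and ELOVL6 windows held none of the 3 motifs, and the RefSeq start of IDI1 lies upstream of the gene end at 1049119 in the GENCODE v44 annotation used for the counts, so its window may not be the start in use in these cells.

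Estimated counts per library summed to between 40374756 and 73850946, and levels below are CPM, counts scaled to a common library total after TMM adjustment. ELMO1 averaged 3.02 CPM in Mock and 2.95 in siNT at 0 h against 0.340 in siELMO1, and 2.32, 3.32 and 0.268 at 24 h. Of 10 endothelial markers 8 reached 1 CPM in every group, with EMCN and CLDN5 near 0. The 10 markers summed to 1035 to 1126 CPM in Mock, 1106 to 1184 in siNT and 1660 to 1762 in siELMO1 at 0 h. Their sums at 24 h were 981 to 1198, 1195 to 1328 and 1679 to 2033. The summed CPM of 6 epithelial markers was 1519 to 1541 in Mock, 1882 to 1913 in siNT and 2103 to 2227 in siELMO1 at 0 h. At 24 h it was lower in each, with 843 to 863, 1012 to 1058 and 1100.0 to 1316, and KRT7, a keratin, went from 754 to 359.8 CPM in Mock. This epithelial sum came almost wholly from KRT7, KRT8 and KRT18. CDH1 had 0 CPM in every group, and EPCAM and KRT19 reached at most 1.24 and 0.434 CPM in any library. Mitochondrially encoded genes took 1.86% of the counts of siELMO1 replicate 1 at 0 h but 4.03% and 3.95% of replicates 2 and 3. At 24 h, replicate 3 of siNT was the lowest of its group for 28 of the 33 genes and replicate 3 of siELMO1 for 29, against 38.3% and 38.5% of all tested genes. The summed CPM of 10 proliferation genes was 2521 to 2610.0 in Mock, 2133 to 2205 in siNT and 637 to 667 in siELMO1 at 0 h. At 24 h it was 1745 to 1911 in Mock and 1301 to 1416 in siNT, below 0 h, and 1151 to 1355 in siELMO1, above 0 h. The sum of 10 interferon-stimulated genes was 154 to 215 in the 9 libraries at 0 h, and 9124 to 10110.0 in Mock, 4879 to 6755 in siNT and 7838 to 9327 in siELMO1 at 24 h. The part of these differences in the results below was not tested. The study reports massive apoptotic death of siNT cells after poly(I:C), with much less in Mock cells and in knockdown cells. The part of this cell death in the comparisons that use siNT cells after poly(I:C) was not tested. In bulk RNA, fewer cells of a kind and less RNA per cell cannot be told apart.

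**Figure D1:**
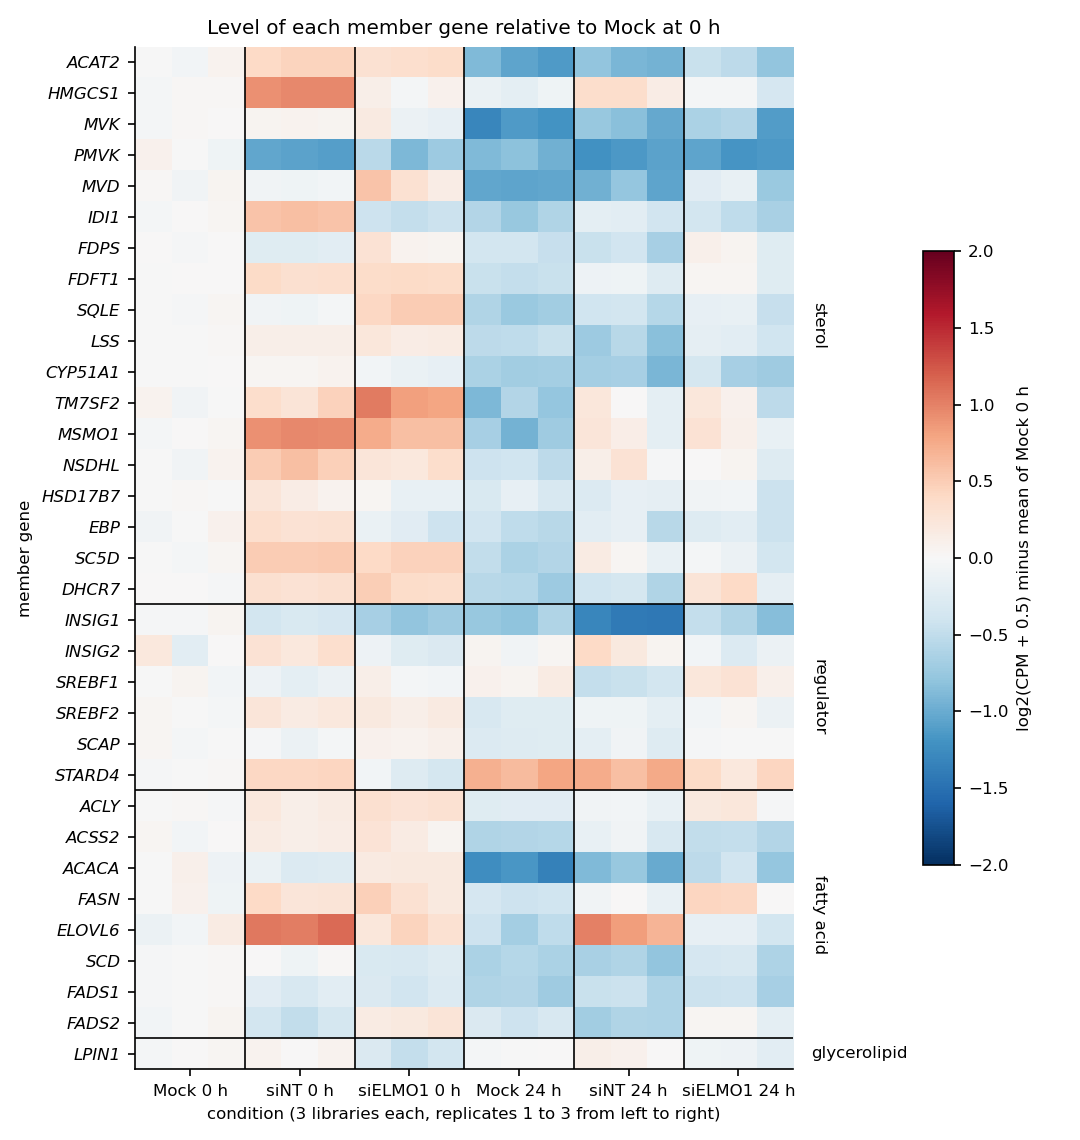
Level of the 33 genes (rows) in the 18 libraries (columns), as log2(CPM + 0.5) minus the mean of Mock at 0 h, with red for higher and blue for lower. The Mock 24 h columns are blue for the enzymes of both branches, PMVK is blue in every column after Mock 0 h, STARD4 is red at 24 h, and HMGCS1, MSMO1 and ELOVL6 are darkest red in siNT at 0 h.

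Per transcript length, the stearoyl-CoA desaturase SCD had the highest level in Mock cells at 0 h, with 538 ± 9.15 TPM (transcripts scaled by length to a common total; mean ± SD, n = 3). The squalene synthase FDFT1 followed with 389 ± 26.4 TPM and the farnesyl diphosphate synthase FDPS with 306 ± 0.953 TPM. At the other end were ELOVL6, which elongates palmitate, with 4.34 ± 0.359 TPM, and TM7SF2, a sterol C14 reductase, with 7.38 ± 0.110 TPM. The regulators ran from 14.7 ± 2.06 TPM for INSIG2 to 179 ± 6.36 TPM for INSIG1, with 75.7 ± 2.15 TPM for SREBF2 and 49.2 ± 2.11 TPM for SREBF1. The 3 SREBF1 transcripts that start between 17836986 and 17837002 on chromosome 17 took 88.4% ± 3.9 of its counts in Mock at 0 h and a mean of 90.2% to 92.1% in the other groups.

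The first comparison asks what 24 h with poly(I:C) did to the pathway in each transfection. Enzymes of both branches fell. In Mock cells 17 of 18 sterol enzymes and 8 of 8 fatty acid enzymes were lower at 24 h and 0 were higher, where 29.6% of all tested genes were lower and 30.7% higher (edgeR quasi-likelihood test, Benjamini-Hochberg adjusted p under 0.05 over 15167 genes). Values after ± are standard errors unless named SD. The median log2 fold changes of the branches were -0.63 and -0.58, against 0.0066 over all genes. In siNT cells 16 of 18 and 7 of 8 were lower (background 25.2% lower, 28.6% higher), with medians of -0.64 and -0.29. In siELMO1 cells 13 of 18 and 6 of 8 were lower (background 26.9% lower, 28.0% higher), with medians of -0.44 and -0.21. No enzyme of either branch was called higher in any of the 3 transfections, and 10 sterol and 5 fatty acid enzymes were lower in all 3, where 11.6% of all tested genes were.

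**Figure D2:**
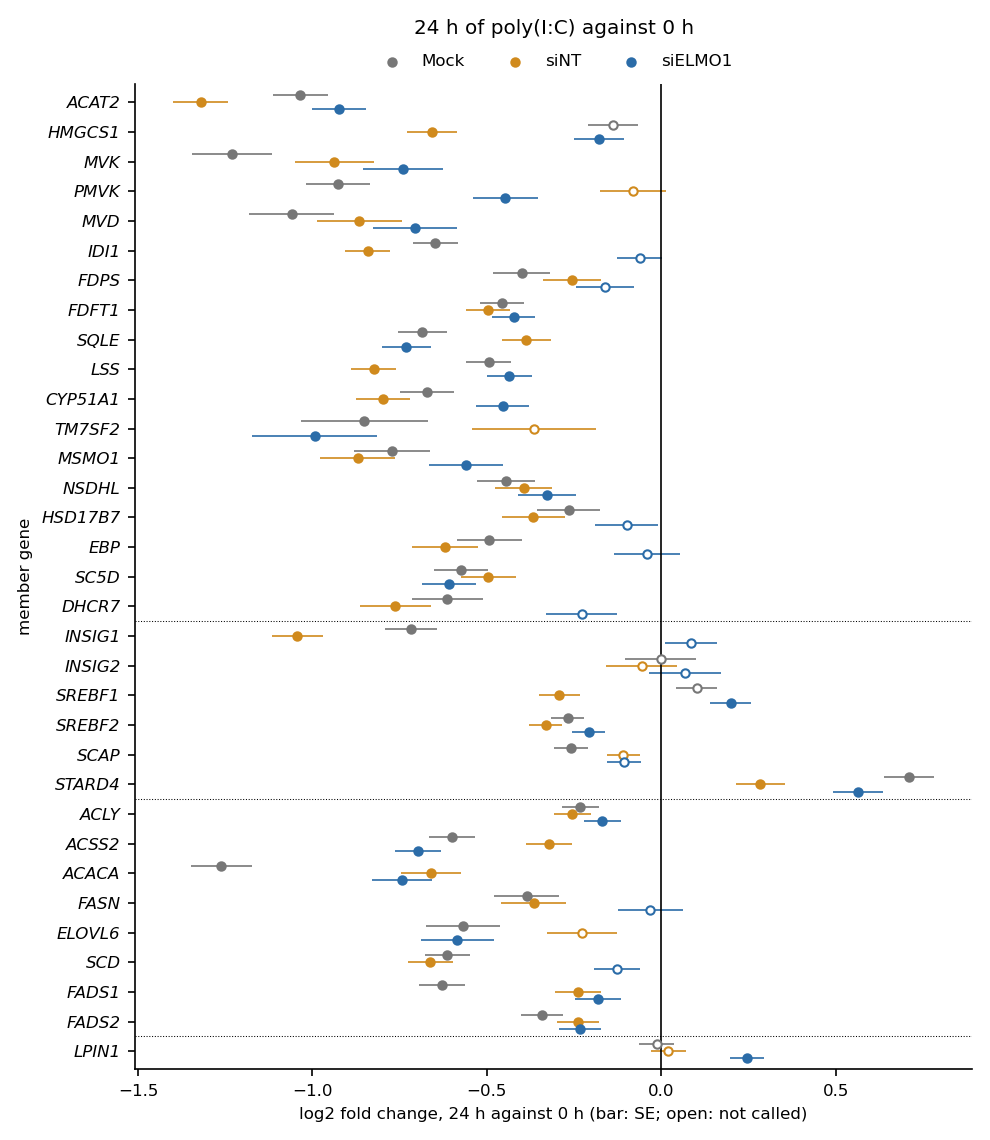
Log2 fold change at 24 h with poly(I:C) against 0 h for each gene (rows), with Mock in grey, siNT in orange and siELMO1 in blue. Bars are standard errors, and filled points passed adjusted p under 0.05. Every enzyme of the sterol and fatty acid branches lies left of 0 in all 3, while STARD4 lies right of it.

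Among the mevalonate steps, ACAT2, the cytosolic thiolase that starts the pathway, had 57.2, 55.4 and 60.6 CPM in Mock at 0 h and 31.1, 27.4 and 26.0 at 24 h. The 24 h libraries were all below the 0 h libraries (log2 fold change -1.03 ± 0.079, adjusted p = 3.2e-09), as they were in siNT (log2 fold change -1.32 ± 0.079, adjusted p = 2.1e-10) and in siELMO1 (log2 fold change -0.92 ± 0.078, adjusted p = 1.7e-08). ACAT2 overlaps SOD2 on the opposite strand, which went from 79.6 CPM to 3786 CPM in Mock, the opposite direction. ACAT2 also overlaps TCP1 on the opposite strand, which fell as ACAT2 did, from 358 to 259 CPM in Mock. Whether reads of these neighbours were counted for ACAT2 was not tested. MVK, the mevalonate kinase, had 49.5, 52.1 and 51.3 CPM in Mock at 0 h and 20.3, 22.9 and 22.0 at 24 h. This was a log2 fall of 1.23 ± 0.12 (SE), beside 0.94 in siNT and 0.74 in siELMO1, and the groups did not overlap in any of the 3. MVK overlaps MMAB on the opposite strand, which also fell, from 32.5 to 21.3 CPM in Mock. MVD, the decarboxylase of the same segment, fell by 1.06, 0.87 and 0.71 in Mock, siNT and siELMO1.

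HMGCS1, the synthase that commits acetoacetyl-CoA to the pathway, differed between transfections. It had 109, 114 and 115 CPM in Mock at 0 h and 102, 98.2 and 106 at 24 h, a difference that did not pass the test (log2 fold change -0.14 ± 0.072, adjusted p = 0.11), although the libraries did not overlap. In siNT it went from 211, 219 and 218 CPM to 144, 143 and 125 (log2 fold change -0.66 ± 0.072, adjusted p = 5.5e-07). In siELMO1 it went from 122, 109 and 119 CPM to 109.8, 109.6 and 89.2 (log2 fold change -0.18 ± 0.072, adjusted p = 0.046), and that call was lost without siELMO1 24 h replicate 3 (adjusted p = 0.27) and also without siELMO1 0 h replicate 1 or 3 (0.13 and 0.11). PMVK, the next kinase after MVK, fell in Mock (log2 fold change -0.93 ± 0.092, adjusted p = 1.1e-07) and siELMO1 (-0.45 ± 0.093). In siNT, where it was already low at 0 h with 7.31, 7.15 and 6.96 CPM, it had 6.44, 6.70 and 7.11 at 24 h (log2 fold change -0.081 ± 0.094, adjusted p = 0.49).

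IDI1, the isopentenyl diphosphate isomerase, fell in Mock (-0.65 ± 0.065) and siNT (-0.84 ± 0.064). In siELMO1 it had 122, 115 and 119.7 CPM at 0 h and 125, 114 and 103 at 24 h, which overlap (log2 fold change -0.062 ± 0.064, adjusted p = 0.44). FDPS had log2 fold changes of -0.40 ± 0.083 in Mock, -0.26 ± 0.083 in siNT and -0.16 ± 0.083 in siELMO1, the last not called, and the siNT call was lost without siNT 24 h replicate 3 (adjusted p = 0.09).

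From squalene to cholesterol, 11 of 11 enzymes were lower in Mock, 10 of 11 in siNT and 8 of 11 in siELMO1. SQLE, the squalene epoxidase, had 178, 176 and 183 CPM in Mock at 0 h and 117, 107 and 110.0 at 24 h (log2 fold change -0.69 ± 0.070, adjusted p = 1.7e-07). It fell in siNT (-0.39 ± 0.070) and in siELMO1 (-0.73 ± 0.070) as well, and the 0 h and 24 h libraries were apart in each. MSMO1, a sterol C4 methyl oxidase, had 159.6, 166 and 168 CPM in Mock at 0 h and 104, 84.9 and 101 at 24 h (log2 fold change -0.77 ± 0.11, adjusted p = 7.2e-06). It fell from 316 to 173 CPM in siNT and from 259 to 176 in siELMO1. LSS, which closes the sterol rings, CYP51A1, the lanosterol demethylase, NSDHL, SC5D and FDFT1 were also lower in all 3. The log2 falls of CYP51A1 were 0.67, 0.80 and 0.46 in Mock, siNT and siELMO1, and those of SC5D were 0.57, 0.50 and 0.61.

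HSD17B7, EBP and DHCR7, enzymes of the late steps, were lower in Mock and siNT but did not pass in siELMO1. DHCR7, the last enzyme of one route, had 229.9, 212 and 210.1 CPM in siELMO1 at 0 h and 196, 215 and 144 at 24 h, so that 1 of the 3 later libraries lay above 2 of the earlier ones (log2 fold change -0.23 ± 0.10, adjusted p = 0.065). TM7SF2 was low throughout, with 2.17 to 9.69 CPM over all libraries, and was lower in Mock and siELMO1 and not called in siNT (log2 fold change -0.36 ± 0.18, adjusted p = 0.093). The HSD17B7 call in Mock was lost without Mock 24 h replicate 3 (adjusted p = 0.06), and HSD17B7, FDPS and SCD have pseudogenes with which the counting may have shared reads.

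In the fatty acid branch, ACACA, the acetyl-CoA carboxylase that makes malonyl-CoA, had the largest fall of the 33 genes in Mock. It had 167, 180.2 and 156 CPM at 0 h and 70.5, 74.0 and 65.3 at 24 h (log2 fold change -1.26 ± 0.087, adjusted p = 8.3e-10), and it fell in siNT (-0.66 ± 0.086) and siELMO1 (-0.74 ± 0.086). FASN, the fatty acid synthase, had 554, 589 and 523 CPM in Mock at 0 h and 437, 418 and 419.7 at 24 h (log2 fold change -0.39 ± 0.093, adjusted p = 0.0017). In siELMO1 it had 768, 686 and 634 CPM at 0 h and 744, 741 and 556 at 24 h, which overlap (log2 fold change -0.032 ± 0.093, adjusted p = 0.79). SCD, which makes oleate, went from 1155 to 755 CPM in Mock and from 1143 to 722 in siNT, and its change in siELMO1 was not called (-0.13 ± 0.065). ACSS2, which makes acetyl-CoA from acetate, fell by 0.60, 0.32 and 0.70 on the log2 scale in Mock, siNT and siELMO1, and ACLY, which makes it from citrate, by 0.23, 0.26 and 0.17. The desaturases FADS1 and FADS2, which lie head to head and overlap on opposite strands, were lower in all 3. The ACLY and FADS1 calls in siELMO1 were lost without siELMO1 24 h replicate 3 (adjusted p = 0.074 and 0.16), and FADS1 also without siELMO1 0 h replicate 1 or 3 (0.054 and 0.082). With replicate 3 of both siNT and siELMO1 left out at 24 h, an alternative chosen after seeing the data, 12 of 18 sterol and 4 of 8 fatty acid enzymes were lower in siELMO1.

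The 6 regulators and transport genes moved in both directions. In Mock 1 was higher and 3 lower (all genes 30.7% and 29.6%), and in siNT 1 and 3 (all genes 28.6% and 25.2%). In siELMO1 2 were higher and 1 lower (all genes 28.0% and 26.9%). SREBF2, the factor known chiefly for sterol genes, fell modestly in Mock (-0.27 ± 0.048), siNT (-0.33 ± 0.048) and siELMO1 (-0.21 ± 0.048). SREBF1, known chiefly for fatty acid genes, had 81.3, 85.1 and 78.8 CPM in Mock at 0 h and 87.0, 84.5 and 91.4 at 24 h, which overlap (log2 fold change 0.10 ± 0.059, adjusted p = 0.15). It fell in siNT (-0.29 ± 0.059) and rose in siELMO1 (0.20 ± 0.059), and the rise was lost without siELMO1 24 h replicate 2 (adjusted p = 0.052) and with library totals in place of TMM (0.093). INSIG1, the retention protein and itself a known SREBP target, had 199.9, 201 and 212 CPM in Mock at 0 h and 121, 117 and 134 at 24 h (log2 fold change -0.72 ± 0.074, adjusted p = 1.6e-07). In siNT it went from 158, 165 and 161 CPM to 82.7, 76.5 and 75.5 (log2 fold change -1.04 ± 0.074, adjusted p = 2.3e-09). In siELMO1 it had 129, 118 and 124 CPM at 0 h and 146, 134 and 114 at 24 h, which overlap (log2 fold change 0.085 ± 0.074, adjusted p = 0.35). INSIG2 passed in none of the 3. SCAP averaged 55.5 CPM at 0 h and 46.4 at 24 h in Mock, 53.1 and 49.2 in siNT, and 59.1 and 54.9 in siELMO1.

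STARD4, a cytosolic carrier that moves sterol between membranes, was the 1 gene of the 33 that rose in every transfection, where 14.4% of all tested genes did. It had 209, 211 and 214 CPM in Mock at 0 h and 345, 327 and 365 at 24 h (log2 fold change 0.71 ± 0.071, adjusted p = 1.1e-07). It rose in siNT from 282, 282 and 284 CPM to 355, 321 and 357 (log2 fold change 0.28 ± 0.070, adjusted p = 0.0025) and in siELMO1 from 204, 176 and 166 to 276, 246 and 285 (log2 fold change 0.56 ± 0.071, adjusted p = 2.6e-06). The later libraries were above all earlier ones in each transfection. LPIN1 rose in siELMO1 (log2 fold change 0.24 ± 0.049, adjusted p = 0.0004) and was not called in the other two, with -0.014 ± 0.049 in Mock and 0.020 ± 0.049 in siNT.

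**Figure D3:**
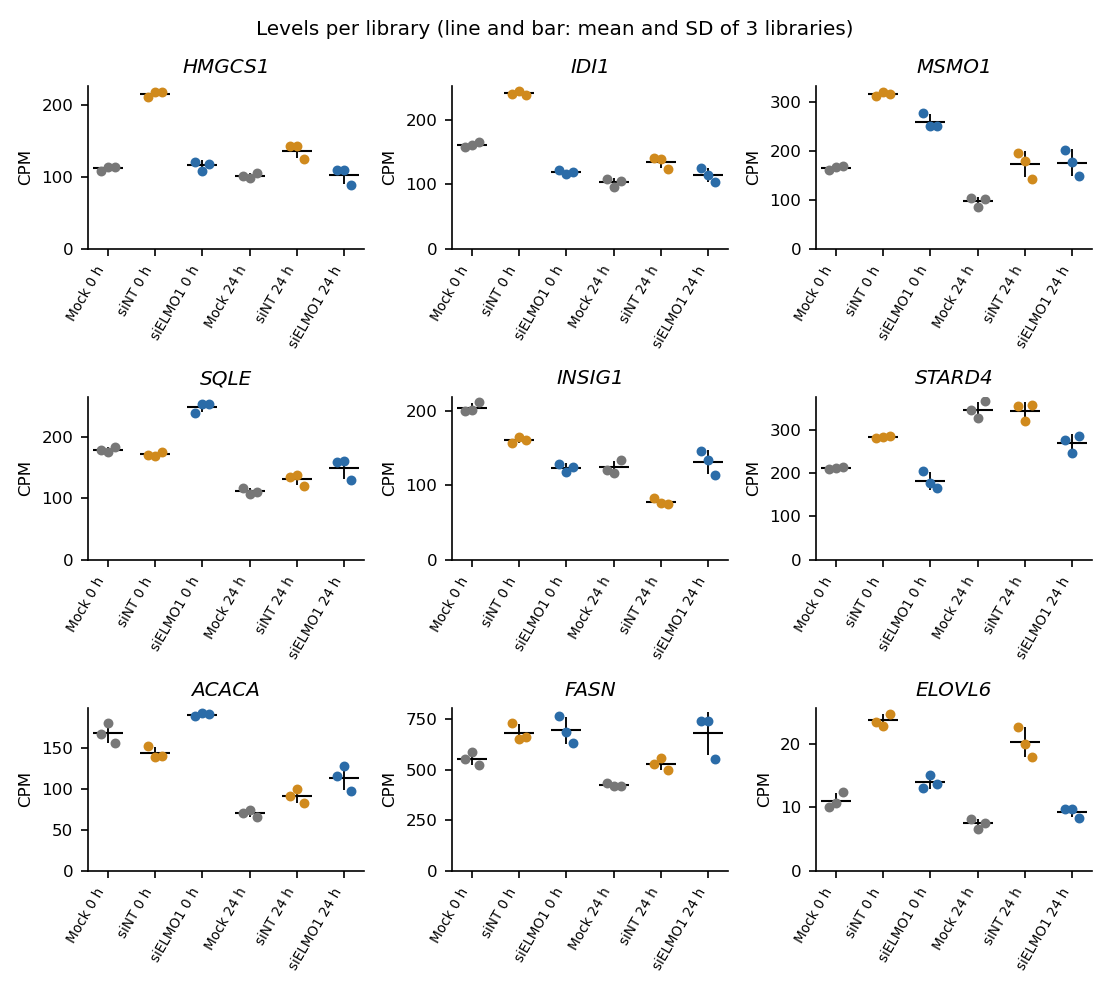
CPM of 9 of the genes in each library, with Mock in grey, siNT in orange and siELMO1 in blue, and black lines and bars for the mean and SD of 3 libraries. HMGCS1, IDI1, STARD4 and ELOVL6 stand higher in siNT than in siELMO1 at 0 h, SQLE and ACACA stand higher in siELMO1, and INSIG1 is lowest in siNT at 24 h.

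The next comparisons asked what the non-targeting siRNA did before poly(I:C), which is the background for the knockdown. In siNT against Mock at 0 h, 9 sterol enzymes were higher and 2 lower of 18, and 3 fatty acid enzymes were higher and 3 lower of 8, where 27.6% of all genes were higher and 24.0% lower. The median log2 fold change was 0.31 in the sterol branch and 0.065 in the fatty acid branch, against 0.0285 over all genes. HMGCS1 had 109, 114 and 115 CPM in Mock and 211, 219 and 218 in siNT (log2 fold change 0.94 ± 0.072, adjusted p = 7.5e-09). MSMO1 had 159.6, 166 and 168 CPM in Mock and 312, 319.9 and 316 in siNT (log2 fold change 0.94 ± 0.11, adjusted p = 1.0e-06). Both were higher in every siNT library, as were IDI1 (0.58 ± 0.064), NSDHL (0.53 ± 0.082), SC5D (0.52 ± 0.077), ACAT2 (0.43 ± 0.077) and FDFT1 (0.35 ± 0.062). ELOVL6 had 10.1, 10.6 and 12.4 CPM in Mock and 23.4, 22.8 and 24.7 in siNT (log2 fold change 1.10 ± 0.10, adjusted p = 9.5e-08). PMVK went the other way, with 16.6, 15.5 and 14.6 CPM in Mock and 7.31, 7.15 and 6.96 in siNT (log2 fold change -1.12 ± 0.093, adjusted p = 2.0e-08), as did FADS2 (-0.40 ± 0.060), FADS1 (-0.25 ± 0.066) and INSIG1 (-0.34 ± 0.073). Of the 21 calls among the 33 genes, 14 held under every alternative, while EBP was lost without Mock 0 h replicate 1 (adjusted p = 0.072), INSIG2 without Mock 0 h replicate 2 (0.3), DHCR7, ACLY and FASN without Mock 0 h replicate 3 (0.075, 0.13 and 0.098), and FDPS and ACACA without siNT 0 h replicate 2 (0.061 and 0.11). The 3 higher fatty acid calls fell to 1 without Mock 0 h replicate 1, without Mock 0 h replicate 3 or without siNT 0 h replicate 1.

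The knockdown was then compared with siNT at 0 h. Here neither branch moved as a unit, with 5 sterol enzymes higher and 6 lower of 18 and 3 fatty acid enzymes higher and 2 lower of 8, where 31.3% of all genes were higher and 31.3% lower. Shares this near the background are no result about the branches, and the differences lay in single steps. The median log2 fold changes were -0.083 and 0.025, against 0.0009 over all genes.

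The lower genes in siELMO1 included 3 early sterol or transport genes that were high in siNT. IDI1 had 241, 245 and 239 CPM in siNT and 122, 115 and 119.7 in siELMO1 (log2 fold change -1.02 ± 0.065, adjusted p = 2.5e-10). HMGCS1 had 211, 219 and 218 CPM in siNT and 122, 109 and 119 in siELMO1 (log2 fold change -0.89 ± 0.072, adjusted p = 6.5e-09). STARD4 had 282, 282 and 284 CPM in siNT and 204, 176 and 166 in siELMO1 (log2 fold change -0.64 ± 0.071, adjusted p = 3.9e-07). The groups did not overlap for any of these. Against Mock, which shares the siELMO1 libraries with this comparison, HMGCS1 in siELMO1 had a log2 difference of 0.051 ± 0.072 (adjusted p = 0.59), IDI1 was lower (-0.44 ± 0.064) and STARD4 was lower (-0.22 ± 0.070), a call lost without siELMO1 0 h replicate 2 or 3 (adjusted p = 0.06 and 0.097). EBP, the sterol isomerase (-0.57 ± 0.094), ELOVL6 (-0.77 ± 0.10), INSIG2 (-0.50 ± 0.10), LPIN1 (-0.43 ± 0.049) and INSIG1 (-0.38 ± 0.073) were also lower than in siNT.

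The higher genes in siELMO1 lay at other steps. SQLE had 170.5, 169 and 175 CPM in siNT and 239, 254 and 254 in siELMO1 (log2 fold change 0.54 ± 0.070, adjusted p = 2.8e-06), and was also above Mock (0.47 ± 0.070). FADS2, the delta-6 desaturase, had 136, 126 and 137 CPM in siNT and 197, 200.5 and 209 in siELMO1 (log2 fold change 0.61 ± 0.060, adjusted p = 9.1e-08). FEN1 lies on the same strand within the FADS2 interval and averaged 158 CPM in siNT and 48.3 in siELMO1, the opposite direction. ACACA had 153, 139 and 139.5 CPM in siNT and 189, 192 and 191 in siELMO1 (log2 fold change 0.41 ± 0.085, adjusted p = 0.00045), with no overlap in either gene. MVD (0.43 ± 0.12), FDPS (0.38 ± 0.083), PMVK (0.38 ± 0.093) and TM7SF2 (0.57 ± 0.18) were the other sterol enzymes that were higher. Of the 22 calls, 17 held under every alternative, while MSMO1 was lost without siELMO1 0 h replicate 2 (adjusted p = 0.076), SREBF1 without siELMO1 0 h replicate 1 (0.17), HSD17B7 without siNT 0 h replicate 1 (0.12), and SCAP and ACLY without siNT 0 h replicate 2 (0.052 and 0.11).

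**Figure D4:**
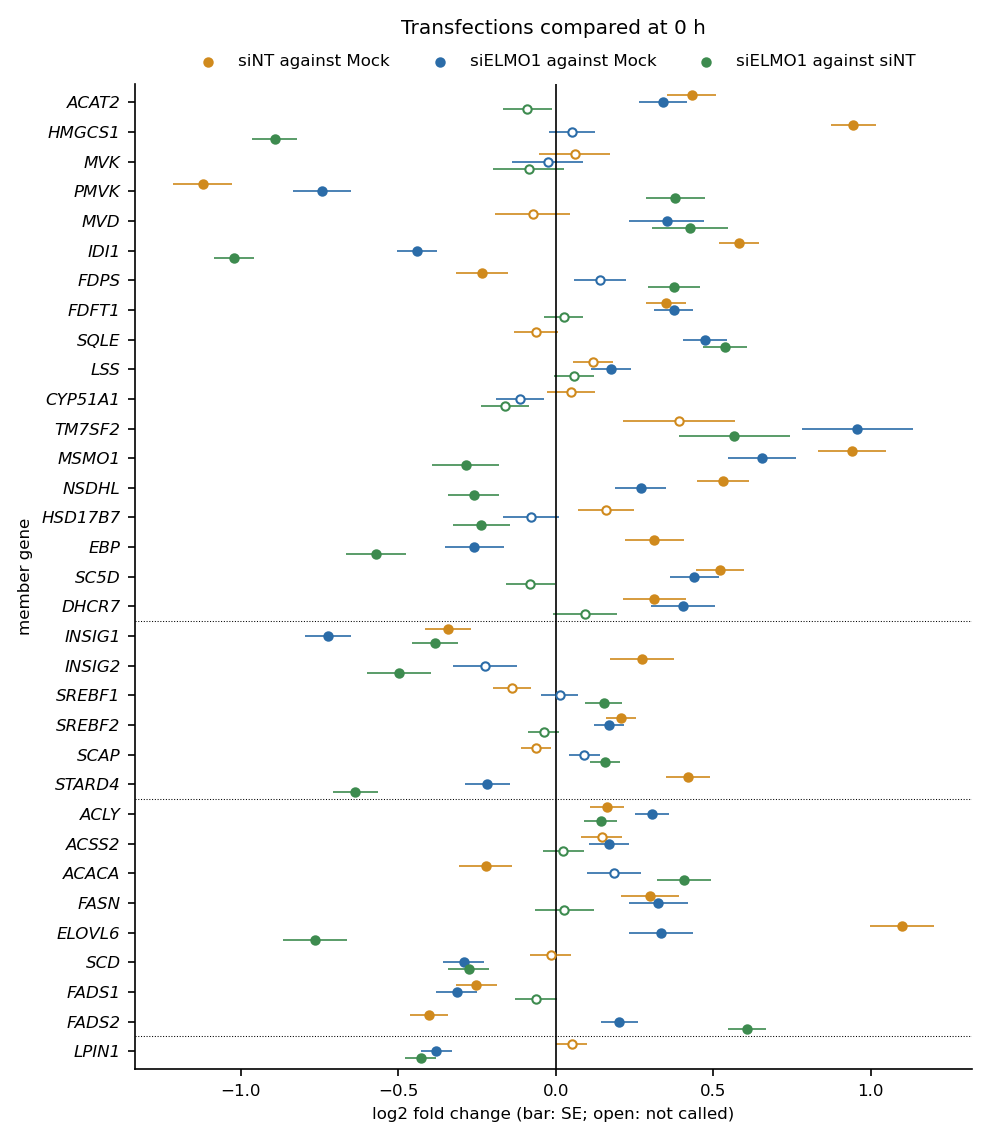
Log2 fold change between transfections at 0 h for each gene (rows), with siNT against Mock in orange, siELMO1 against Mock in blue and siELMO1 against siNT in green, which share libraries. Bars are standard errors and filled points passed adjusted p under 0.05; for IDI1, EBP and STARD4 the orange point is right of 0 and the blue and green points are left of it.

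Set against Mock, siELMO1 cells at 0 h had 10 sterol enzymes higher and 3 lower of 18 and 5 fatty acid enzymes higher and 2 lower of 8, where 27.9% of all genes were higher and 22.4% lower. A set of 6 genes was above Mock with both siRNAs and did not pass the test between them, namely ACAT2, FDFT1, SC5D, DHCR7, SREBF2 and FASN, where 5.22% of all tested genes did the same. These comparisons share libraries, so that count is a description. MSMO1 was also above Mock in siELMO1, with 276, 250.3 and 251 CPM (0.66 ± 0.11). The genes lower than Mock were PMVK (-0.74 ± 0.092), IDI1, EBP (-0.26 ± 0.094), INSIG1 (-0.72 ± 0.074), STARD4, LPIN1 (-0.38 ± 0.049), FADS1 (-0.32 ± 0.066) and SCD (-0.29 ± 0.065). The 5 higher fatty acid calls were the least stable count, and went to 2 without Mock 0 h replicate 1 or 2, to 3 without Mock 0 h replicate 3 or siELMO1 0 h replicate 2, and to 2 with no filter on low counts. Leaving out Mock 0 h replicate 1 ended the calls of LSS, ELOVL6, FADS2, MVD, NSDHL and ACSS2 (adjusted p = 0.13, 0.092, 0.087, 0.064, 0.052 and 0.096). Without Mock 0 h replicate 2 the same calls were lost (NSDHL at 0.083, ACSS2 at 0.26), and that of SREBF2 (0.063). Without Mock 0 h replicate 3 those of LSS, EBP, SREBF2, ACSS2 and FASN were lost (0.096, 0.069, 0.099, 0.14 and 0.061). The MVD call was also lost without siELMO1 0 h replicate 1 (0.12) and the EBP call without siELMO1 0 h replicate 3 (0.15).

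After poly(I:C), more enzymes of both branches were above Mock than below it in both siRNA groups. In siELMO1 against Mock at 24 h, 12 sterol enzymes were higher and 1 lower of 18, and 6 fatty acid enzymes were higher and 0 lower of 8, where 21.6% of all genes were higher and 22.0% lower. The medians were 0.40 and 0.31, against -0.0083 over all genes. FASN had 437, 418 and 419.7 CPM in Mock and 744, 741 and 556 in siELMO1 (log2 fold change 0.68 ± 0.093, adjusted p = 1.3e-05). ACACA had 70.5, 74.0 and 65.3 CPM in Mock and 116, 128 and 97.4 in siELMO1 (log2 fold change 0.70 ± 0.086, adjusted p = 3.7e-06). MSMO1 (0.87 ± 0.11), TM7SF2 (0.81 ± 0.18), DHCR7 (0.79 ± 0.10) and MVD (0.71 ± 0.12) had the largest differences of the sterol branch. In siNT against the same Mock libraries, 9 sterol enzymes were higher and 2 lower, and 5 fatty acid enzymes were higher and 1 lower, where 25.2% were higher and 24.9% lower, with medians of 0.21 and 0.23. The largest of these was ELOVL6, with 8.11, 6.64 and 7.59 CPM in Mock and 22.7, 20.0 and 17.9 in siNT (log2 fold change 1.44 ± 0.11, adjusted p = 8.5e-09). INSIG1 (-0.67 ± 0.074), SREBF1 (-0.53 ± 0.059), FADS2, PMVK and LSS were lower in siNT than in Mock. Libraries with the same replicate number in Mock and siNT deviated together at 24 h, and with the replicate as a block INSIG2 was also called (log2 fold change 0.215, adjusted p = 0.029). Against Mock, the siELMO1 calls of PMVK (adjusted p = 0.11) and ELOVL6 (0.11) were lost without Mock 24 h replicate 2 and that of SCD (0.12) without siELMO1 24 h replicate 2. The siNT calls were lost for MVK (0.081) and SREBF2 (0.12) without Mock replicate 1, for PMVK (0.076) without Mock replicate 2, for SQLE (0.052) and ACLY (0.11) without siNT replicate 2, and for LSS (0.066) without siNT replicate 3.

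Between the 2 siRNA groups at 24 h, 6 sterol enzymes were higher in siELMO1 and 3 lower of 18, and 5 fatty acid enzymes were higher and 2 lower of 8, where 26.0% of all genes were higher and 26.5% lower. The cell death of siNT cultures after poly(I:C), named above, was not accounted for in this comparison. INSIG1 had 82.7, 76.5 and 75.5 CPM in siNT and 146, 134 and 114 in siELMO1 (log2 fold change 0.74 ± 0.074, adjusted p = 2.4e-07). SREBF1 had 58.7, 59.9 and 63.1 CPM in siNT and 95.9, 100.1 and 87.8 in siELMO1 (log2 fold change 0.64 ± 0.059, adjusted p = 9.7e-08). Neither INSIG1 nor SREBF1 was called in siELMO1 against Mock at 24 h, while both were lower in siNT than in Mock. INSIG1 averaged 131 CPM in siELMO1 and 124 in Mock, and SREBF1 94.6 and 87.6. Every siELMO1 library was above every siNT library for both, as it was for DHCR7 (0.63 ± 0.10), FADS2 (0.61 ± 0.060), MVD (0.59 ± 0.12) and LSS (0.45 ± 0.064). ELOVL6 went the other way, with 22.7, 20.0 and 17.9 CPM in siNT and 9.71, 9.72 and 8.38 in siELMO1 (log2 fold change -1.12 ± 0.10, adjusted p = 1.0e-07), and HMGCS1 (-0.41 ± 0.072), INSIG2 (-0.37 ± 0.10), STARD4 (-0.36 ± 0.070), ACSS2 (-0.35 ± 0.066) and IDI1 (-0.24 ± 0.064) were lower too. The calls were lost for SQLE (adjusted p = 0.14) without siELMO1 24 h replicate 2, for SC5D (0.25) without siNT 24 h replicate 1 and for SCAP (0.059) without siNT 24 h replicate 3.

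The response to poly(I:C) itself was compared between transfections by an interaction term, which does not account for the cell death of siNT cultures. Relative to siNT, the change in siELMO1 was more positive for 7 sterol enzymes and more negative for 2 of 18, and more positive for 1 and more negative for 1 of 8 fatty acid enzymes, where 16.7% of all genes were more positive and 17.8% more negative. INSIG1 had the largest such difference of the 33 genes, at 1.13 ± 0.10 on the log2 scale (adjusted p = 1.9e-07), followed by IDI1 (log2 fold change 0.78 ± 0.091, adjusted p = 3.2e-06). Relative to Mock, the change in siELMO1 was more positive for 4 sterol and 3 fatty acid enzymes and more negative for 0 of either, where 13.8% were more positive and 14.6% more negative. Without siELMO1 0 h replicate 1 or without siELMO1 24 h replicate 3 that sterol count was 7. The summed level of the proliferation genes was higher at 24 h than at 0 h in siELMO1 and lower in Mock and siNT, and its part in these differences was not tested. The change in siNT relative to Mock was more positive for 2 and more negative for 2 sterol enzymes and more positive for 3 and more negative for 0 fatty acid enzymes, where 15.0% and 16.0% of all genes were. PMVK (0.85 ± 0.13) and ACACA (0.60 ± 0.12) fell less in siNT than in Mock and HMGCS1 fell more (-0.52 ± 0.10).

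**Figure D5:**
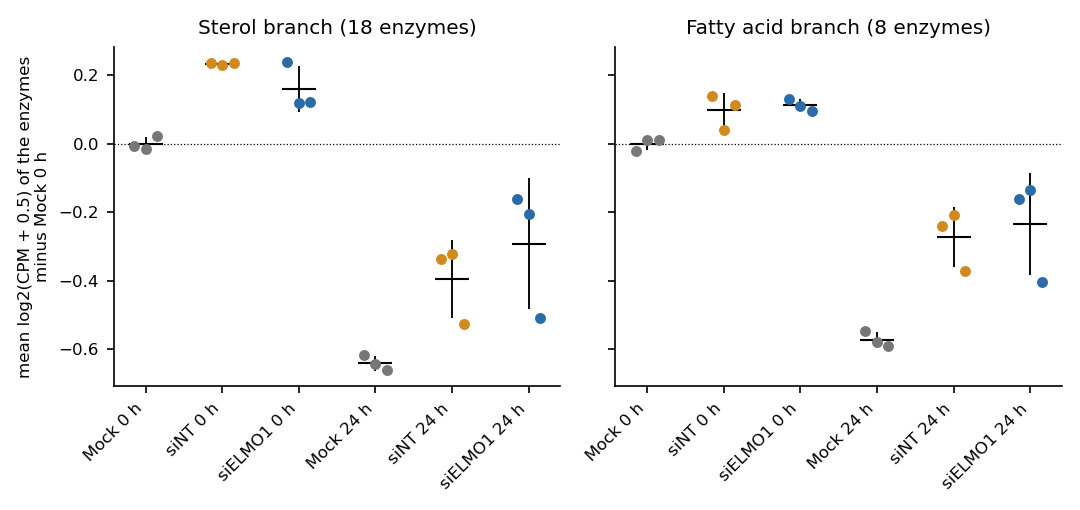
Mean log2(CPM + 0.5) of the 18 sterol enzymes (left) and the 8 fatty acid enzymes (right) in each library, relative to Mock at 0 h, with lines and bars for the mean and SD of 3 libraries. Mock at 24 h is lowest in both panels, at -0.64 and -0.57, and replicate 3 lies below the other 2 in siNT and siELMO1 at 24 h.

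The mean log2 level of the sterol enzymes relative to Mock at 0 h was 0.23 ± 0.003 (SD, n = 3) in siNT and 0.16 ± 0.067 in siELMO1 at 0 h, and -0.64 ± 0.022 in Mock, -0.395 ± 0.115 in siNT and -0.29 ± 0.19 in siELMO1 at 24 h. The fatty acid enzymes had 0.098 ± 0.051 and 0.11 ± 0.017 at 0 h and -0.57 ± 0.023, -0.27 ± 0.087 and -0.23 ± 0.15 at 24 h. The sterol level minus the fatty acid level lay between 0.095 and 0.19 in the siNT libraries at 0 h and between -0.16 and 0 in the 9 libraries at 24 h. For siELMO1 replicates 1, 2 and 3 at 0 h it was 0.106, 0.01 and 0.026, so replicate 1 lay within the siNT range. In siELMO1 at 24 h replicate 3 had a sterol level of -0.51, while replicates 1 and 2 had -0.16 and -0.20. No test was made on these averages.

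Other genes of the pathway, from lists chosen with earlier results of these data known, are given against the shares of all genes, which were 30.7% higher and 29.6% lower with poly(I:C) in Mock. Of 10 genes of SREBP processing and degradation, 0 were higher and 5 lower with poly(I:C) in Mock, led by SPRING1, a cofactor of the SREBP protease (-1.06). The same list had 3 higher and 3 lower in siNT (all genes 28.6% and 25.2%) and 3 higher and 6 lower in siELMO1 (all genes 28.0% and 26.9%). The protease gene MBTPS1 was higher in siELMO1 than in siNT at 0 h (1.10) and 24 h (0.74). At 0 h it was lower in siNT than in Mock (-0.70) and higher in siELMO1 than in Mock (0.40), with means of 220.2 CPM in Mock, 135 in siNT and 290.5 in siELMO1. Its list had 4 genes higher and 4 lower in siELMO1 than in siNT at 0 h (all genes 31.3% and 31.3%) and 4 higher and 3 lower at 24 h (all genes 26.0% and 26.5%). Of 11 isoprenoid branch genes, 5 were higher and 4 lower with poly(I:C) in Mock, and of 12 tested genes of sterol uptake, trafficking and storage 5 were higher and 3 lower. The latter included TMEM97, a sterol-responsive membrane protein (-0.83), and SOAT1, which esterifies cholesterol (0.79). Of 16 other genes of fatty acid synthesis and elongation 5 were higher and 7 lower, with the elongase ELOVL7 at 4.06 and the dehydratase HACD2 at -1.20 in Mock. ELOVL7 rose from a low level, with means of 0.510 CPM at 0 h and 8.55 at 24 h, while HACD2 went from 96.0 to 41.8.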

How the data were processed

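Libraries were made from poly(A) RNA with a stranded kit and sequenced as paired ends. Per the study's methods the authors aligned reads to GRCh38 with STAR, quantified them against GENCODE v44 with StringTie and deposited gene and transcript matrices of estimated counts made from coverage, so 1 read pair adds more than 1 count and counting error is understated. Whether counting used strand is not given in the sources used here. The 33 genes and all gene lists were chosen with earlier results of these data known.

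After the study's own filter (a summed count of 100 or more, and 1 CPM or more in some library), 15167 of 62754 genes were left. They were scaled by TMM (factors 0.958 to 1.06) and fitted over all 18 libraries with 6 group terms in edgeR 4.0.16 (R 4.3.3), using the quasi-likelihood test with Benjamini-Hochberg adjustment at 0.05. This count test replaces the authors' limma model, which had voom weights and, by dream, random effects of a factor not given in the sources used here. That model was not rerun. Limma with voom weights alone (limma 3.58.1) was an alternative, as were DESeq2 1.42.0, other scalings and filters, a replicate block and leaving out each library. SE is the fold change divided by the root of its F statistic. TPM came from transcript counts and lengths. The methods name 3 biological replicates per group, and p-values measure the spread among these cultures. Same-numbered Mock and siNT libraries at 24 h correlated in their deviations from the group means (r = 0.215, 0.277 and 0.326 over 9644 genes), and in no other pair of groups were all 3 correlations over 0.1, the limit set for pairing. Single library pairs were higher, with r = 0.424 between replicate 3 of siNT and of siELMO1 at 24 h. Replicate 3 of Mock and of siELMO1 at 24 h had r = 0.358. These siNT and siELMO1 libraries were the lowest of their groups for 28 and 29 of the 33 genes. All 33 genes are named, and from other lists up to 3 called genes with the largest change. Promoters were ranked by the largest called difference between siELMO1 and siNT.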

Additional observations from a re-analysis of the deposited data

Results flagged for a closer look

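Each result here is a difference between transfections in the log2 change from 0 h to 24 h with poly(I:C), tested as an interaction in edgeR with adjustment over 15167 genes, and every one passed adjusted p under 0.05. No explanation was tested.

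The change in siELMO1 minus that in siNT was positive for INSIG1 (1.13), IDI1 (0.78), EBP (0.58), SCD (0.54), DHCR7 (0.53), SREBF1 (0.49), HMGCS1 (0.48), ACAT2 (0.40), LSS (0.39), CYP51A1 (0.34), STARD4 (0.28) and LPIN1 (0.22). It was negative for ACSS2 (-0.38), PMVK (-0.37) and SQLE (-0.34). INSIG1 changed by -1.04 in siNT and by 0.085 in siELMO1, and IDI1 by -0.84 and -0.062. The calls of PMVK (adjusted p up to 0.21), STARD4 (0.1), LPIN1 (0.054) and CYP51A1 (0.053) were lost under at least 1 alternative, CYP51A1 without siNT 24 h replicate 3 or siELMO1 24 h replicate 1 and LPIN1 without siELMO1 0 h replicate 2.

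The change in siNT minus that in Mock was positive for PMVK (0.85), ACACA (0.60), FADS1 (0.39), SQLE (0.30) and ACSS2 (0.28). It was negative for HMGCS1 (-0.52), STARD4 (-0.43), SREBF1 (-0.39), LSS (-0.33) and INSIG1 (-0.33). SQLE (adjusted p up to 0.08), ACSS2 (0.093), INSIG1 (0.1) and LSS (0.052) lost their calls under at least 1 alternative, SQLE and ACSS2 without siNT 24 h replicate 2 and INSIG1 without Mock 0 h replicate 1.

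The change in siELMO1 minus that in Mock was positive for INSIG1 (0.80), IDI1 (0.59), ACACA (0.52), MVK (0.49), SCD (0.49), PMVK (0.48), EBP (0.45), FADS1 (0.45) and LPIN1 (0.26), and negative for 0 of the 33 genes. MVK lost its call without siELMO1 24 h replicate 2 (adjusted p = 0.089). The 3 interactions share libraries, so their values are not independent of each other.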

How the results depend on the processing

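Over 396 tests of single genes, 195 of the 244 calls held under every alternative, and no gene changed its direction while called. A lost call is mostly named above with 1 left-out library, and many of these calls were also lost under other alternatives. Of 6798 values recomputed, 6396 kept direction and side of the threshold, 239 lost a call and 163 gained one. The higher fatty acid calls in siELMO1 against Mock at 0 h (5) became 3 with library totals in place of TMM, 2 with no filter on low counts and 3 with only the groups compared, and 2 to 5 over the libraries left out in turn; the branch median became 0.112 with library totals. In siNT against Mock at 0 h the higher fatty acid calls were 1 to 3 over the libraries left out, and the branch median reversed to -0.119 without ACLY and ACSS2, 2 genes fewer. With library totals the medians for poly(I:C) in Mock became -0.752 (sterol) and -0.706 (fatty acid), and the fatty acid median of siNT relative to Mock in the interaction became 0.275. Without ACLY and ACSS2 that of siELMO1 relative to Mock became 0.399. The 1 fatty acid enzyme with a more positive change in siELMO1 than siNT became 2 with DESeq2, 2 with the replicate block and 1 to 3 over the libraries left out. The 2 sterol enzymes with a more positive change in siNT than Mock became 1 with no filter and 1 to 2 over the libraries left out, and the 4 of siELMO1 against Mock became 3 to 7. With replicate 3 of siNT and siELMO1 at 24 h both left out, an alternative chosen after seeing the data, these 3 counts were 2, 5 and 9. Leaving out the mitochondrially encoded genes, also chosen after seeing the data, lost 3 calls and gained 9. The replicate block lost 0 calls and gained 10. Replicates were 3 per group and other causes of these changes were not tested.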

Other observations

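Of 6 tested genes of a list of the liver X receptors, which sense oxysterols, and their targets, 5 were higher and 0 lower in siELMO1 than in siNT at 0 h (all genes 31.3% higher), and likewise 5 and 0 at 24 h (all genes 26.0% higher), with medians of 1.08 and 0.75 on the log2 scale. In siELMO1 against Mock at 0 h 4 were higher and 0 lower (all genes 27.9% higher), and in siNT against Mock 1 was higher and 3 lower (all genes 24.0% lower), with medians of 0.77 and -0.25. ABCA1, a cholesterol exporter, averaged 22.5 CPM in Mock, 16.1 in siNT and 50.8 in siELMO1 at 0 h (log2 fold change 1.66 ± 0.088 (SE) for siELMO1 against siNT). ABCG1 (1.55) and the receptor NR1H3 (1.495) were higher in siELMO1 from low levels of 1.18 and 1.20 CPM in siNT. With poly(I:C) ABCA1 rose in Mock (1.87), siNT (2.00) and siELMO1 (1.46). None of 5 listed genes of oxysterol and sterol catabolism passed the filter on low counts, so edgeR tested none of them.

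Of 12 tested genes of glycerolipid synthesis, 3 were higher and 7 lower with poly(I:C) in Mock, 2 and 6 in siNT, and 3 and 4 in siELMO1, where 30.7% and 29.6%, 28.6% and 25.2%, and 28.0% and 26.9% of all genes were higher and lower. The acyltransferases GPAT3, AGPAT5 and GPAM had log2 fold changes of -2.06, -1.80 and -1.75 in Mock. In siELMO1 against siNT at 0 h 1 was higher and 9 lower, with all genes at 31.3% and 31.3%, led by DGAT2, which makes triglyceride (-1.52), and GPAT3 (-1.48). Against Mock at 0 h the list had 6 higher and 1 lower in siNT (all genes 27.6% and 24.0%) and 1 higher and 4 lower in siELMO1 (all genes 27.9% and 22.4%). GPAT3 averaged 7.01 CPM in Mock, 22.7 in siNT and 8.18 in siELMO1, and DGAT2 19.5, 24.3 and 8.41. At 24 h 7 were higher and 1 lower in siELMO1 than in Mock (all genes 21.6% and 22.0%), with GPAT3 at 1.33 and DGAT2 at 0.50. In siNT against Mock at 24 h 8 were higher and 0 lower (all genes 25.2% and 24.9%), with GPAT3 at 2.31 and DGAT2 at 1.41. In siELMO1 against siNT at 24 h 0 were higher and 6 lower (all genes 26.0% and 26.5%). GPAT3 was low at 24 h, with means of 1.68 CPM in Mock, 8.32 in siNT and 4.21 in siELMO1. Of 18 tested genes of fatty acid oxidation, 3 were higher and 8 lower with poly(I:C) in Mock, 1 and 10 in siNT and 1 and 11 in siELMO1, against the same shares of all genes. The largest called changes in Mock were those of ECI2 (-1.30), HADH (-1.09) and CPT1A, the gate to the mitochondrion (-0.84). Of 7 tested acyl-CoA synthetases 3 were higher and 2 lower with poly(I:C) in Mock, with ACSL5 at 1.71. All these lists were chosen with earlier results of these data known.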
